A study of Mus musculus with 6 samples.

Results

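The guanylate-binding proteins (Gbp genes) and the immunity-related GTPases (Irg genes) are GTP-hydrolysing proteins that cells make in response to interferon. Members of both families were examined here in mouse glioma tissue, namely Gbp2, Gbp3, Gbp5, Gbp6, Gbp7 and Gbp9 and the Irg genes Irgm1, Irgm2, Igtp and Iigp1. These 10 genes were chosen by symbol, and all 10 are among the 16729 genes of the deposited count table. All 10 also passed the filter on low counts in both comparisons. The tumors arose from mG7080 gliomasphere cells, a culture that came from a genetic mouse model of glioma, injected into the brains of C57BL/6 mice (C57BL/6J by the methods). Hosts were either Esm1 WT (WT 1, WT 2 and WT 3) or Esm1 KO (KO 1, KO 2 and KO 3), with 3 RNA-seq libraries per group, and were 6 to 8 weeks of age by the methods of the study, whose reporting summary gives an older range. Esm1 encodes Endocan, a proteoglycan secreted by endothelial cells. The deletion is one of the host, and the same mG7080 culture was injected in both groups. RNA came from whole tumor tissue, so each library pools tumor cells and host cells, and fewer cells of a type cannot be told apart from less RNA per cell.

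Interferon-gamma, made mainly by T and NK cells, binds the receptor of Ifngr1 and Ifngr2, and the kinases Jak1 and Jak2 then pass the signal on. In the nucleus it acts through short palindromic elements called GAS and switches on Irf1, and Irf1 and Irf9 act through a second element, the ISRE. Gbp proteins assemble on bacteria and on the vacuoles of intracellular parasites and help to expose their contents to inflammasome sensors. Irg proteins fall into effectors such as Iigp1, which attack the vacuole, and regulators such as Irgm1, Irgm2 and Igtp, which sit on the membranes of the host cell and hold the effectors inactive there. In brain, microglia, infiltrating macrophages and astrocytes are known to express them after exposure to interferon.

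Most of the members lie in clusters. In GRCm38 with the GENCODE vM21 annotation, Gbp5 (142493978 to 142522344), Gbp7 (142530342 to 142550149), Gbp3 (142560026 to 142573209) and Gbp2 (142620602 to 142638008) follow each other on the plus strand of chromosome 3. Gbp9 (105077630 to 105139539) and Gbp6 (105270702 to 105293698) lie on the minus strand of chromosome 5. On chromosome 11, Irgm1 spans 48861968 to 48871683 on the minus strand, while Igtp (58199556 to 58207591) and Irgm2 (58199618 to 58222782) overlap on the plus strand. Their promoters are shown because elements of the GAS and ISRE kind are read there. Windows from 250 bases before to 50 bases after the start, taken from RefSeq (GRCm38.p6), were found for 7 of the 10 members, and Gbp6, Gbp9 and Iigp1 were not matched. These RefSeq starts differ in part from the GENCODE spans above. The stretches printed below for Gbp5, Irgm1 and Irgm2 lie inside those spans, and those for Gbp2 and Gbp3 overlap them. Each window was searched on both strands for the GAS letters TTCNNNGAA and the ISRE letters GAAA, any 2 bases, GAAA (TTTC, any 2 bases, TTTC on the other strand). The ISRE letters were present in 7 of 7 genes, against 3.99% of all 27025 genes with a window, and the GAS letters in 4 of 7 (Gbp5, Gbp7, Igtp and Irgm2), against 9.55%. The 4 genes held both, against 0.54% of all genes. Among other interferon-inducible GTPases with a window, 5 of 8 held the ISRE letters, 3 the GAS letters and 3 both. Of 20 genes of the type I interferon response, 10 held the ISRE letters, 5 the GAS letters and 2 both. Gbp3 has a pair of windows, and the downstream window, which held neither element, is not printed. The 170 bases before each other start are given 5′ to 3′ in the direction of the gene, with matches in capitals, and adjoining or overlapping matches run together:
Gbp5, chr3:142496764-142496933, plus strand: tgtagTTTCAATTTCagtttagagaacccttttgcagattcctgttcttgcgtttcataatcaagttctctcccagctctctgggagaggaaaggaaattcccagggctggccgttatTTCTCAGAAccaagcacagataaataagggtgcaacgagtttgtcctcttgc
Gbp7, chr3:142530166-142530335, plus strand: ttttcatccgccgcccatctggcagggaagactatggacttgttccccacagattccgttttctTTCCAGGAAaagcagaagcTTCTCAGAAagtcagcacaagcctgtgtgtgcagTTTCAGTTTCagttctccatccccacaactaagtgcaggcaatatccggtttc
Gbp3, chr3:142559874-142560043, plus strand: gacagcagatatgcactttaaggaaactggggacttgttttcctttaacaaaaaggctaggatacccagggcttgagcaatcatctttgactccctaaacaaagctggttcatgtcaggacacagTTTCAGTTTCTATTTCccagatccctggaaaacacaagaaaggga
Gbp2, chr3:142620493-142620662, plus strand: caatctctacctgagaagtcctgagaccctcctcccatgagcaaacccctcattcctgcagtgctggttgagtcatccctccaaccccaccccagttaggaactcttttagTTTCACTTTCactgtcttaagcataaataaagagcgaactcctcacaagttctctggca
Irgm1, chr11:48871421-48871590, minus strand: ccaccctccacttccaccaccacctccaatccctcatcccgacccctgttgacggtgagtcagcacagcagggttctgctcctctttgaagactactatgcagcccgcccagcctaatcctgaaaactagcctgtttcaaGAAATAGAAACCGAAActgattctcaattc
Igtp, chr11:58199386-58199555, plus strand: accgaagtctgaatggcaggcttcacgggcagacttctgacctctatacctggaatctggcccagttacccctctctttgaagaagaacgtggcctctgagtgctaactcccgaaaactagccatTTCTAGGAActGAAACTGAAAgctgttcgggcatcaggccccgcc
Irgm2, chr11:58214807-58214976, plus strand: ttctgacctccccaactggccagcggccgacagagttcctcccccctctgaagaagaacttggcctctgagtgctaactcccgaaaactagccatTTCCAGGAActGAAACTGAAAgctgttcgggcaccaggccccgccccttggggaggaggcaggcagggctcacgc
In Gbp2 the ISRE letters ended 50 bases before the start, and in Gbp3 and Irgm1 a pair of overlapping matches ended 30 and 15 bases before it. Igtp and Irgm2 carried both elements in the same order and spacing, with the GAS letters 45 and 75 bases before the start. With the elements aligned, 108 of 140 bases were identical between Igtp and Irgm2 (77.1%), and the longest identical run was 38 bases. A match of letters is a description of the sequence and does not show that a factor binds there.

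Libraries held 17632070 to 22241832 counted reads, and 1 read corresponded to 0.0441 to 0.0568 CPM (the read count scaled to library size with the TMM factors of edgeR). The deleted gene was read first. Esm1 had 25, 21 and 82 reads in WT 1, WT 2 and WT 3 and 1, 24 and 4 reads in KO 1, KO 2 and KO 3, so that the library labelled KO 2 carried Esm1 at the level of WT 1 and WT 2. That library also stood among the WT libraries on the first principal component of all genes (84.5% of the variance), at 34.9, against 18.8 to 88 in WT and -88.6 and -122 in KO 1 and KO 3. The study's own results table holds WT 1, WT 2, KO 1 and KO 3. The comparisons of the members and of the gene lists are therefore given over these 4 libraries and over all 6. Esm1 itself was lower in KO over the 4 libraries (log2 fold change -3.02, SE 0.64, edgeR adjusted p = 0.0425), and it did not pass over all 6 (-2.20, SE 1.01, adjusted p = 0.192). Of the 4 libraries, WT 1 was the only one whose removal kept the call of Esm1, since adjusted p was 0.13 with KO 1 removed, 0.118 with KO 3 removed and 0.0685 with WT 2 removed.

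All 10 GTPase genes were abundant in tumors of WT hosts and low in KO 1 and KO 3. Over the 4 libraries all 10 fell in KO, with log2 fold changes from -4.55 (Gbp3) to -3.57 (Gbp9) and a median of -4.02, against a median of -0.03 over all genes. Of all 16183 genes tested, 13.9% were lower in KO by this test (edgeR quasi-likelihood, adjusted p under 0.05) and 2.87% were higher. With a fold above 4 required as well, the 10 members stayed called, against 6.23% of all genes lower and 0.451% higher. Before adjustment, 26.2% of all genes were lower at a p under 0.05, the 10 members among them. Over all 6 libraries 0 of the 10 passed, and neither did any other gene (0.0% of 16166). The library labelled KO 2 held the 10 transcripts at the level of WT. Adjusted p then ran from 0.22 to 0.548 (edgeR), and the median log2 fold change was -1.36. An unadjusted p under 0.05 was reached by 0 members, against 11.9% of all genes that did so while lower in KO. Higher in KO at that p were 2462 of the 16166 genes. DESeq2, which gave an adjusted p for 8 members, the edgeR exact test and limma-voom also called 0 members over the 6. They called 425, 46 and 0 of all 16166 genes lower and 757, 75 and 0 higher. Before adjustment 1, 0 and 1 members were at a p under 0.05. The share of all genes at that p is not given for these tests, so no result about the members is read from these counts. With only KO 2 left out, all 10 passed (median log2 fold change -4.00, edgeR adjusted p from 0.00798 to 0.0124), against 28.3% of all genes lower and 24.5% higher in the same fit.

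**Figure D1:**
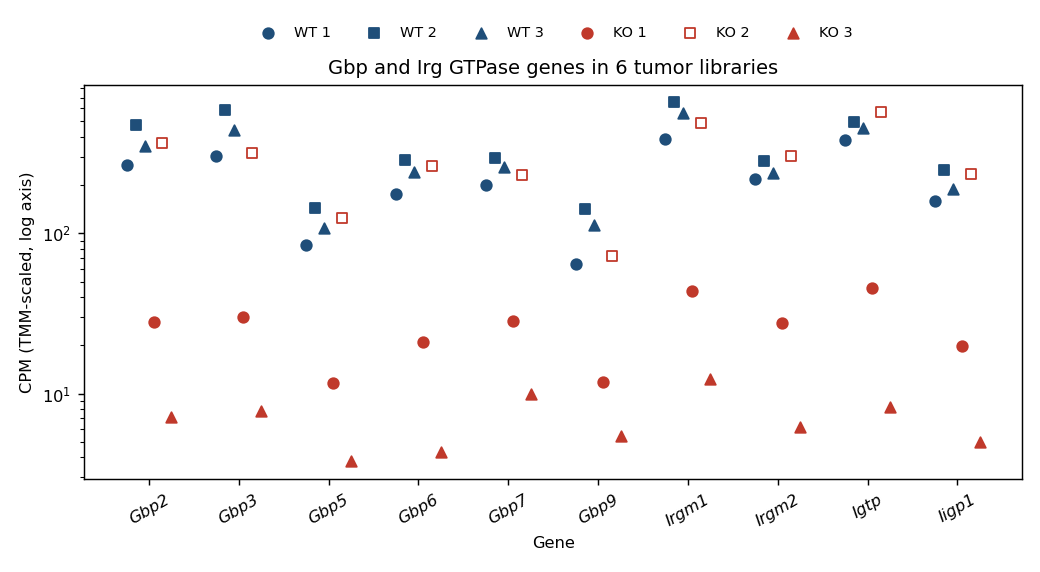
Level of each Gbp and Irg gene in each library, in CPM on a log axis, with blue symbols for the 3 WT libraries and red symbols for the 3 KO libraries (open square, KO 2). For each of the 10 genes KO 1 and KO 3 lie below all WT libraries, with KO 3 lowest, while KO 2 lies within the WT range for 8 genes and above it for Irgm2 and Igtp.

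Among the Gbp genes of the chromosome 3 cluster, Gbp2, whose product carries a lipid anchor and coats parasite vacuoles, was at 266, 476 and 349 CPM in WT 1, WT 2 and WT 3 and at 28.1, 368 and 7.11 CPM in KO 1, KO 2 and KO 3. KO 1 and KO 3 thus lay far below every WT library, whereas KO 2 lay inside the WT range. Its WT mean of 364 CPM (SD 106, n = 3) was 12.9 times the level of KO 1 and 51.1 times that of KO 3, and the log2 fold change over the 4 libraries was -4.39 (SE 0.77, edgeR adjusted p = 0.0348). Gbp3 was at 304, 583 and 439 CPM in the WT libraries and at 29.9, 316 and 7.79 CPM in the KO libraries, listed by number. It had the lowest log2 fold change of the members, at -4.55 (SE 0.78, edgeR adjusted p = 0.0344). Gbp5, known for promoting assembly of the NLRP3 inflammasome, was at 84.7, 143 and 108 CPM in WT and at 11.7, 125 and 3.79 CPM in KO. In KO 3 it had 73 reads, the lowest count of any member in any library, which is well above the 3 reads that a count of 0 allows. Gbp7 was at 199, 294 and 258 CPM in WT and at 28.2, 231 and 9.97 CPM in KO, which again placed KO 2 within the WT range. The log2 fold changes of Gbp5 and Gbp7 over the 4 libraries were -3.87 (SE 0.61) and -3.68 (SE 0.57), both with an edgeR adjusted p of 0.0343.

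In the chromosome 5 cluster, Gbp6 was at 175, 285 and 241 CPM in WT 1, WT 2 and WT 3 and at 21.1, 261 and 4.31 CPM in KO 1, KO 2 and KO 3. Its log2 fold change over the 4 libraries was -4.17 (SE 0.81, edgeR adjusted p = 0.0389). Reads of Gbp6 are uncertain in origin, because 49.9% of the 50-base words of its annotated exons also occur in genes elsewhere, mostly Gbp10 (45.9%), and 65.0% are shared with the overlapping model Gm43302. Gbp9, which had the lowest WT level per length, was at 64.4, 142 and 112 CPM in WT and at 11.8, 72.4 and 5.45 CPM in KO. KO 2 was near the bottom of the WT range for Gbp9, at 0.682 of the WT mean, the lowest such ratio of the 10, and the WT mean was 19.5 times the level of KO 3, the smallest such fold of the 10. Over the 4 libraries Gbp9 had a log2 fold change of -3.57 (SE 0.56, edgeR adjusted p = 0.0343). The other members shared at most 4.25% of their 50-base words with genes elsewhere. With genes that overlap them, Gbp7 shared 10.5% (Gm43802), Gbp9 6.13% (Gbp4 and Gbp8), Igtp 11.8% (Irgm2) and Irgm2 6.79% (Igtp).

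The regulators of the Irg family behaved in the same way. Irgm1, which is known for its part in resistance to mycobacteria and in autophagy, was at 386, 654 and 562 CPM in WT and at 43.9, 489.6 and 12.3 CPM in KO. KO 2 lay inside the WT range, and KO 1 and KO 3 lay 12.2 and 43.6 times below the WT mean of 534 CPM (SD 136, n = 3). Igtp, also called Irgm3, was at 383, 494 and 452 CPM in WT and at 45.4, 574 and 8.20 CPM in KO. Igtp had the widest gap between KO 1 and KO 3, at 5.54-fold, and its level in KO 2 was the highest of the 6 libraries, at 13031 reads. Irgm2 was at 218, 282 and 236 CPM in WT and at 27.4, 305 and 6.23 CPM in KO, so that here too KO 2 exceeded every WT library. Log2 fold changes over the 4 libraries were -4.20 for Irgm1 (SE 0.73, edgeR adjusted p = 0.0345), -4.02 for Igtp (SE 0.86, adjusted p = 0.0431) and -3.89 for Irgm2 (SE 0.74, adjusted p = 0.0376). The effector Iigp1, also called Irga6, was at 158, 247 and 189 CPM in WT and at 19.8, 234 and 4.98 CPM in KO, with a log2 fold change of -4.02 (SE 0.72, edgeR adjusted p = 0.0353). The log2 fold change of the effector thus lay within the range of the regulators. Each standard error belongs to a single gene over shared libraries, so it does not measure a difference between genes.

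**Figure D2:**
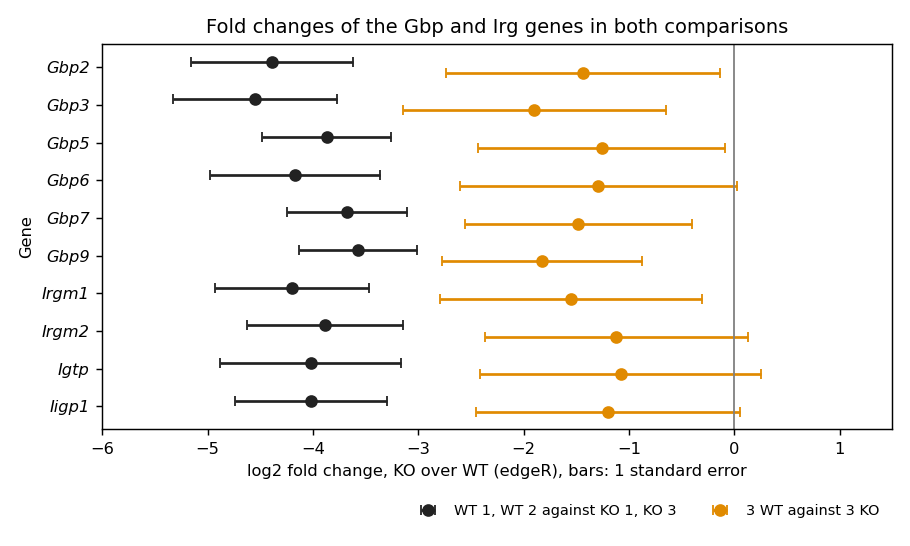
Log2 fold change of each Gbp and Irg gene, KO over WT, with bars of 1 standard error, over WT 1, WT 2, KO 1 and KO 3 (black) and over all 6 libraries (orange). Black points run from -4.55 to -3.57 and orange points from -1.90 to -1.08, with wider bars over the 6 libraries.

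Leaving out a library in turn from the 4 changed the calls only for KO 3. Without KO 3, 7 of the 10 members stayed called, against 1.54% of all genes lower and 0.0% higher in that fit, and the edgeR adjusted p rose above 0.05 for Gbp3 (log2 fold change -3.87, adjusted p = 0.0512), Irgm1 (-3.54, 0.062) and Igtp (-3.25, 0.0581). The median log2 fold change of the members was then -3.29, against -5.35 without KO 1. All 10 stayed called without KO 1, without WT 1 and without WT 2, where 5.62%, 27.5% and 12.5% of all genes were lower and 0.503%, 25.9% and 6.91% higher. Of the 16183 genes tested over the 4 libraries, 160 had a log2 fold change below that of Gbp3, the lowest member, and 399 below that of Gbp9, the highest.

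The 10 genes also kept a common order of the libraries other than KO 2, whose place varied between genes. KO 1 and KO 3 were both below all 3 WT libraries for 10 of 10 members, as they were for 40.4% of all genes tested. KO 1 was above KO 3 for 10 of 10 (49.6% of all genes), by 2.17-fold (Gbp9) to 5.54-fold (Igtp) with a median of 3.89-fold. Within WT the order was WT 2, then WT 3, then WT 1 for 10 of 10, an order shared by 30.3% of all genes. KO 2 fell within the WT range for 8 members (55.1% of all genes) and above it for Irgm2 and Igtp (22.4% of all genes). Its level was 0.682 to 1.30 times the WT mean, with a median of 1.06, whereas the WT mean was 8.87 to 14.8 times the level of KO 1 (median 9.87) and 19.5 to 56.7 times that of KO 3 (median 41.7). Summed over the 10 genes, WT 1, WT 2 and WT 3 held 2238, 3601 and 2946 CPM, and KO 1, KO 2 and KO 3 held 267, 2976 and 70.1 CPM. The 2 KO libraries that were low thus differed from each other as well, and the SD over the KO libraries exceeded that over the WT libraries for every member but Gbp9 (36.9 against 38.9 CPM).

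Per length, Irgm1 and Igtp stood highest among the members in WT, at 239.9 ± 61.2 and 219 ± 27.8 RPKM (mean ± SD, n = 3). Gbp3 (167 ± 52.9 RPKM) and Gbp2 (148 ± 43.2 RPKM) came next, and below them was a gap that the WT ranges did not bridge. Irgm2 (69.9 ± 9.37), Iigp1 (67.3 ± 15.4), Gbp6 (54.1 ± 12.7), Gbp7 (44.7 ± 8.62), Gbp5 (37.1 ± 9.79) and Gbp9 (29.2 ± 10.7 RPKM) formed the lower group. Apart from Gbp2 and Irgm2, neighbours in this order overlapped in their WT ranges. Within libraries, Igtp was above Gbp3 and Iigp1 above Gbp6 in 6 of 6, whereas Irgm1 was above Igtp in only 3 of 6. Much of the order held in the low libraries. Irgm1 made up 20.4%, 19.9% and 22.5% of the summed RPKM of the 10 genes in KO 1, KO 2 and KO 3 and 21%, 22.2% and 23.3% in WT 1, WT 2 and WT 3. Igtp made up 23.3%, 25.7% and 16.6% in KO and 23.0%, 18.5% and 20.6% in WT, and was thus lowest in KO 3. Gbp9 showed the reverse, at 3.37%, 1.81% and 6.15% in KO and 2.15%, 2.95% and 2.85% in WT. Summed CPM of the 6 Gbp genes over that of the 4 Irg genes was 0.957, 0.857 and 1.21 in KO and 0.955, 1.15 and 1.05 in WT, with no separation of the groups.

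Most other interferon-inducible GTPases were low in the same libraries. Of a list of 19 genes, which also held the Irg relatives Irgq and Irgc1, 17 were in the table and 15 were tested. By edgeR 12 fell in KO over the 4 libraries (median log2 fold change -3.94) while 0 rose. DESeq2 and the exact test each called 14 lower and 1 higher. Over all 6 libraries 0 were called (median -1.29), by edgeR and by DESeq2, the exact test and limma-voom alike, and in edgeR 0 were lower and 1 (Irgq) was higher at an unadjusted p under 0.05. Among the Gbp relatives, Gbp4 (log2 fold change -3.94, edgeR adjusted p = 0.0406), Gbp8 (-3.28, 0.0374) and Gbp10 (-4.59, 0.0372) fell, and Gbp11 did not pass (-2.49, 0.0588). Of the Irg relatives, the effectors Tgtp1 (-4.55, edgeR adjusted p = 0.0349) and Tgtp2 (-4.77, 0.0445) and the gene Ifi47 (-4.62, 0.0421) fell, as did Gm4951 (-3.99, 0.0343) and F830016B08Rik (-4.10, 0.0343). Tgtp2 was at 167, 248 and 189 CPM in WT and at 13.6, 224 and 1.45 CPM in KO, the lowest log2 fold change of this list. Tgtp1 and Tgtp2 are near-identical copies, so their separate values are uncertain. Gm12250, which codes for another Irg protein, had a log2 fold change of -4.37 that did not pass (edgeR adjusted p = 0.0528). The genes of the dynamin-like antiviral proteins Mx1 (-3.90, edgeR adjusted p = 0.0394) and Mx2 (-3.19, 0.0343) and the genes 9930111J21Rik1 (-1.98, 0.0368) and 9930111J21Rik2 (-3.05, 0.0397) fell too. Irgq, an Irg-like gene, had a log2 fold change of 0.85 (edgeR adjusted p = 0.0753), at 106, 75.9 and 84.2 CPM in WT and 141, 95.9 and 187 CPM in KO. Without KO 3, 7 of the 15 were called, Gm12250 (-3.45, edgeR adjusted p = 0.0391) among them.

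The chain from the ligand to the GTPases was read gene by gene. Ifng itself was rare, with 30, 30 and 27 reads in WT 1, WT 2 and WT 3 and 6, 48 and 0 reads in KO 1, KO 2 and KO 3. It was thus lower in KO 1 and KO 3 than in any WT library and highest in KO 2, and the difference over the 4 libraries did not pass (log2 fold change -3.13, SE 0.99, edgeR adjusted p = 0.0741), although DESeq2 (0.0405) and the edgeR exact test (0.0015) called it. The receptor and kinase genes did not pass the edgeR quasi-likelihood test either. Ifngr1 had a log2 fold change of -0.69 (edgeR adjusted p = 0.0594), Ifngr2 of 0.36 (0.164), Jak1 of 0.63 (0.125) and Jak2 of -0.28 (0.236). Irf1, a transcription factor that interferon-gamma induces, by contrast fell, and was at 125, 201 and 179 CPM in WT and at 21.5, 231 and 10 CPM in KO (-3.36, SE 0.47, edgeR adjusted p = 0.0343). KO 2 exceeded every WT library for Irf1.

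Further transcription factors of the pathway fell over the 4 libraries as well. They were Irf8, a factor of myeloid cells (log2 fold change -2.41, edgeR adjusted p = 0.0343), Irf9, the DNA-binding part of the type I complex (-2.53, 0.0343), Nlrc5, which drives MHC class I genes (-3.93, 0.043), and Ciita, which drives MHC class II genes (-2.41, 0.0343). Socs1, the feedback inhibitor of the Jak kinases, also fell (-2.63, edgeR adjusted p = 0.0348), at 6.73, 11.4 and 8.83 CPM in WT and 1.82, 14.3 and 1.09 CPM in KO. In the whole list of 21 signaling genes, 10 were lower and 0 higher in KO (median log2 fold change -2.41). Over all 6 libraries 0 were called by any of the tests (median -0.51). At an unadjusted p under 0.05, 0 were lower in edgeR and 2 in DESeq2, where the share of all genes is not given. Without KO 3 the list had 3 called genes, and the calls of Irf9 (adjusted p = 0.0555), Ciita (0.0734) and Socs1 (0.139) were among the ones lost.

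**Figure D3:**
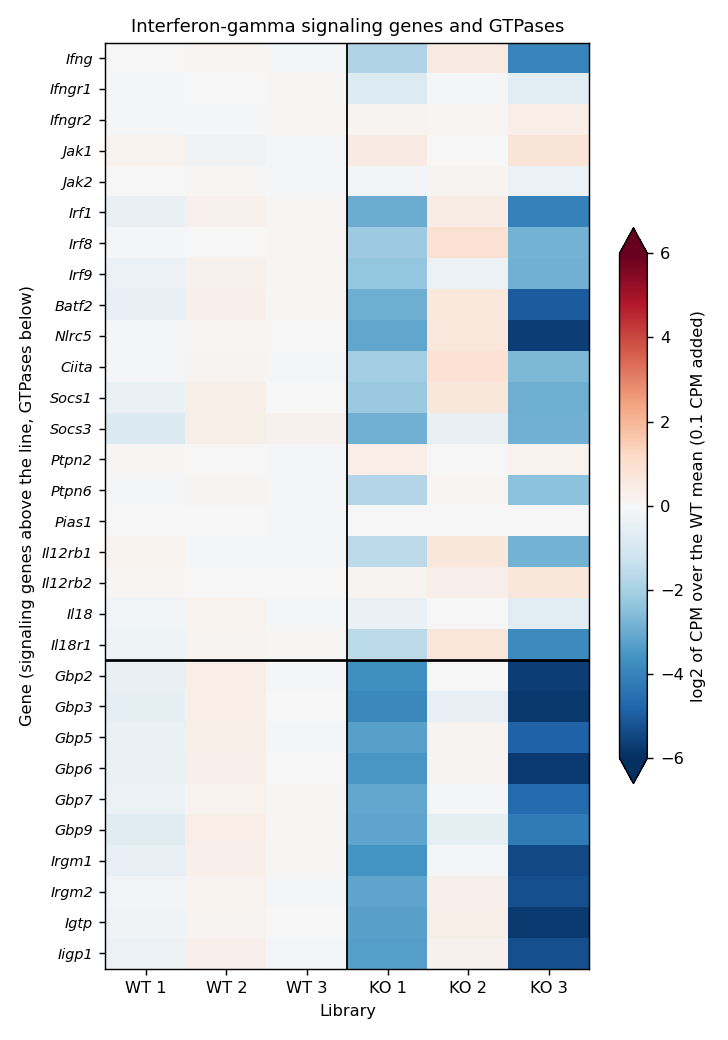
Level of 20 signaling genes (above the line) and each Gbp and Irg gene (below it) in each library, as log2 of CPM over the WT mean with 0.1 CPM added, on a colour scale from -6 (blue) to 6 (red). In KO 1 and KO 3 the GTPases, Irf1 and Nlrc5 are blue while Ifngr2, Jak1, Jak2, Ptpn2 and Pias1 are near white. The column of KO 2 is near those of WT, but lies above all of them for a number of signaling genes.

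Targets of interferon outside the GTPase families were counted in the same way. Of 25 other interferon-gamma targets, such as antigen-presentation genes and chemokines, 17 fell and 0 rose over the 4 libraries (median log2 fold change -2.97), and 9 were called without KO 3. The lowest value of this list belonged to the chemokine Cxcl10, which did not pass (-4.26, edgeR adjusted p = 0.058), and the highest to Ido1, an enzyme of tryptophan breakdown (1.29, 0.303). Of 24 genes of the type I interferon response, 23 fell and 0 rose (median -3.88), and 15 were called without KO 3. Irf7, the amplifier of that response, had the lowest value (-4.89, edgeR adjusted p = 0.0343), and the receptor gene Ifnar1 the highest (-0.14, 0.558). KO 2 was above all 3 WT libraries for 16 of the 25 interferon-gamma targets and 1 of the 24 type I genes, against 22.4% of all genes tested. Over all 6 libraries 0 genes of either list were called by edgeR, DESeq2, the exact test or limma-voom. At an unadjusted p under 0.05 over the 6, 0 of the type I genes were lower in edgeR and 19 in limma-voom. Of the interferon-gamma targets 1 was lower in each. Over all genes 11.9% were lower at that p in edgeR, and the share in limma-voom is not given. The GTPases respond to both kinds of interferon, whose effects cannot be told apart in these libraries.

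Proteins known to work with the GTPases, among them autophagy conjugation factors, prenylation enzymes and inflammasome components, formed a contrasting list. Of 20 such genes, 4 fell and 0 rose over the 4 libraries, and the median log2 fold change was -0.03, equal to that of all genes. The genes that fell were the inflammatory caspases Casp4 (-3.81, edgeR adjusted p = 0.0343) and Casp1 (-3.02, 0.0343), the pore-forming Gsdmd (-2.02, 0.0349) and the ubiquitin ligase Trim21 (-3.21, 0.0343). Casp1, Gsdmd and Trim21 were named after their values were seen, to complete that count. Icmt, which methylates prenylated proteins, had the highest value (0.83, edgeR adjusted p = 0.0698). Without KO 3 the list had 1 lower gene, and without WT 1 it had 7 lower and 6 higher genes, in a fit where 27.5% and 25.9% of all genes were called. With all 6 libraries, 0 were called by edgeR or the other tests, and before adjustment 2 were lower and 2 were higher at a p under 0.05 in edgeR.

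Genes next to the clusters were then examined, by a rule chosen after the data were seen, which took the nearest tested protein-coding gene on each side outside the lists of interferon-inducible GTPases. Beside the chromosome 3 cluster, Pdlim5 had a log2 fold change of -1.53 over the 4 libraries (edgeR adjusted p = 0.0445) and Gtf2b of -0.45 (0.117). Beside the chromosome 5 cluster, Abcg3 was at -2.91 (0.0343) and Lrrc8b at 0.70 (0.0667). Trim7 (-1.62, edgeR adjusted p = 0.0438) and Gm5431 (-3.77, 0.0374) flank Irgm1, and Mrpl22 (-1.21, 0.0513) and Zfp692 (-0.45, 0.168) flank Igtp and Irgm2. Gm5431 is itself an Irg-like gene, though outside those lists. With all 6 libraries, 0 of the 8 neighbours were called, and their log2 fold changes ran from -1.56 (Gm5431) to 0.38 (Lrrc8b).

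The profile of the members over the 6 libraries was compared with that of 15292 genes, by the root mean square difference of log2 CPM centred on each gene's mean. The 5 genes outside the 10 that came closest were Itgax (0.124), Gm12185 (0.133), Gm4951 (0.135), Gbp4 (0.14) and F830016B08Rik (0.147). Itgax, the integrin CD11c of dendritic cells and some macrophages and microglia, was at 53.0, 92.2 and 64.1 CPM in WT and at 5.39, 61.9 and 1.51 CPM in KO. Gm4951, Gbp4 and F830016B08Rik are in the list of other GTPases. Distances of the members from their own mean ran from 0.0941 (Irgm1) to 0.49 (Gbp9).

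Several cell type markers moved with the members. Summed CPM of 10 T and NK cell markers was 38.5, 37.9 and 36.4 in WT and 27.6, 49.9 and 6.07 in KO 1, KO 2 and KO 3. Cd4 alone held 22.8 CPM in KO 1, and without Cd4, a choice made after seeing the data, the other 9 markers summed to 28.1, 30.4 and 27.8 CPM in WT and 4.77, 39.9 and 2.44 CPM in KO. Of the 10 markers 9 fell over the 4 libraries, but 0 were called without KO 3, 5 without KO 1 and 4 without WT 2, while 9 were lower at an unadjusted p under 0.05 in each of these fits. The killer-cell protein gene Prf1 was at 0 reads in KO 3, which allows up to 0.156 CPM, and no other cell type marker in the table was at 0 in any library. Cd4 had the highest log2 fold change of the T and NK list (0.57, edgeR adjusted p = 0.603). For 12 microglia and macrophage markers the sums were 1008, 976 and 937 CPM in WT and 705, 1265 and 631 CPM in KO. Of these, 5 fell over the 4 libraries, among them the pan-leukocyte gene Ptprc (-2.60, edgeR adjusted p = 0.0343), whereas 0 were called without KO 3 and 2 without KO 1, and P2ry12, a marker of resident microglia, was at 0.94 (0.123). The WT mean of the microglia and macrophage sum was 1.38 and 1.54 times the levels of KO 1 and KO 3, against 11 and 41.8 times for the sum of the members.

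Tumor and brain markers differed between the same libraries. Proliferation markers summed to 1379, 2557 and 2387 CPM in WT and 166, 1527 and 75.3 CPM in KO, and 11 of 12 fell over the 4 libraries (median log2 fold change -4.44), with Cdk1 lowest (-5.23) and Pcna highest (-1.90). Glioma cell markers summed to 1529, 2089 and 1900.5 CPM in WT and 575, 1883 and 389 CPM in KO, and 8 of 9 fell (median -2.42), with 2 called without KO 3 and 5 without KO 1. Neuron markers went the other way, at 5829, 2038 and 3515 CPM in WT and 12994, 4990 and 15901 CPM in KO (median 1.76). Of the 12 neuron markers 0 were called by edgeR over the 4 libraries, while DESeq2 called 11 and the exact test 10. In edgeR 10 were higher at an unadjusted p under 0.05, as were 3227 of all 16183 genes tested. Without WT 1 edgeR called 12 of them higher, and without WT 2 it called 6. Endothelial markers summed to 186, 251 and 236 CPM in WT and 282, 216 and 205 CPM in KO, with 0 of 10 called by edgeR, DESeq2, the exact test or limma-voom and 2 higher at an unadjusted p under 0.05 (median -0.01). Of 8 astrocyte markers Gfap fell (-2.26, edgeR adjusted p = 0.0343) and Gja1, named to complete the count, rose (1.42, 0.0476), but both calls were lost without KO 1 and without KO 3, and 5 were higher without WT 1. Myelinating oligodendrocyte markers had 0 of 8 called by edgeR and 0 at an unadjusted p under 0.05 (median 1.07), 2 called higher by DESeq2 and 7 called higher without WT 1. Alas2 alone of the red blood cell markers was in the table, and it was not called. In the comparison of all 6 libraries, edgeR and limma-voom called 0 genes of these cell type lists, DESeq2 called 2 neuron and 2 astrocyte markers higher and 1 glioma cell marker lower, and the exact test called 2 astrocyte markers higher and 1 glioma cell marker lower. The median log2 fold changes were -0.90 for T and NK cell, -0.24 for microglia and macrophage, -1.81 for proliferation, -0.87 for glioma cell, 1.53 for neuron, -0.09 for endothelial cell, 0.62 for astrocyte and 1.03 for myelinating oligodendrocyte markers. Before adjustment, edgeR had 6 neuron, 4 astrocyte, 2 endothelial, 1 microglia and macrophage and 1 oligodendrocyte marker higher at a p under 0.05. Lower at that p was 1 marker each of the astrocyte, glioma cell and microglia and macrophage lists. Of all 16166 genes tested, 2462 were higher and 1923 lower at that p. The part of these differences in the levels of the GTPases was not tested.

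**Figure D4:**
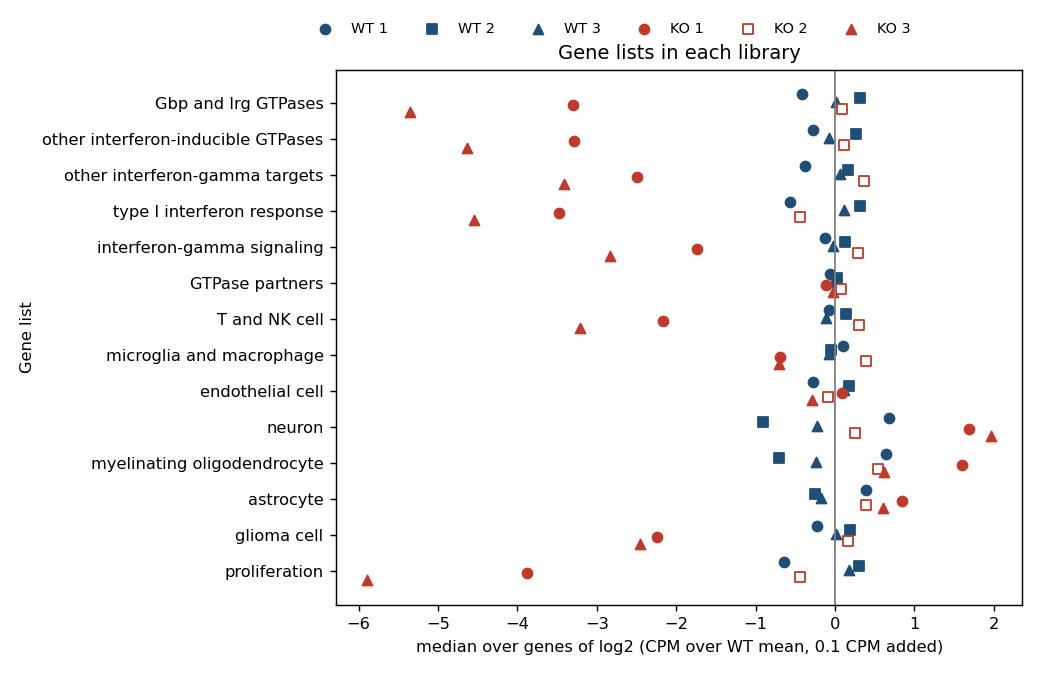
Median over the genes of each list of log2 CPM relative to the WT mean (0.1 CPM added), per library, with blue symbols for WT and red for KO (open square, KO 2). The Gbp and Irg GTPases lie at -3.30 in KO 1 and -5.36 in KO 3. Near them are other interferon-inducible GTPases (-3.29 and -4.64), the type I interferon response (-3.48 and -4.55) and proliferation (-3.88 and -5.89). Neuron markers lie at 1.69 and 1.97.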

How the data were processed

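Total RNA of 6 tumors was sequenced, 3 per host genotype, and samples were grouped by their labels. The labels name the NEBNext Ultra kit, mm10 and, in the submitters' processing notes, CASAVA 1.8.2 and edgeR, whereas the methods of the study name the Ovation Ultralow kit and hg38. The authors deposited raw read counts per gene, made with HTSeq from uniquely mapped reads by the methods of the study, beside FPKM. The deposited FPKM were found to equal the count divided by gene length and library total, and were used here only to obtain gene lengths for RPKM. Columns with fold changes, p-values and false discovery rates from the authors' own comparison were not used. The study calls its replicates independent biological ones and gives 3 mice per group for RNA-seq of such tumors. It does not say whether the tumors within a group were processed separately. The p-values therefore measure the spread between these samples, and counting floors cover counting error only.

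Models were fitted with edgeR 4.0.16 under R 4.3.3 (filterByExpr with a minimum count of 10 and total of 15, TMM factors, quasi-likelihood F test, Benjamini-Hochberg adjustment over all genes tested). A gene was called at an adjusted p under 0.05, and log2 fold changes are KO over WT. Alternatives were RLE, upper quartile and total-count scaling, other filters on low counts, DESeq2 1.42.0, the edgeR exact test, limma-voom (limma 3.58.1), each library left out in turn and a replicate block. The pipeline was tested on simulated data. Python 3.11.15 was used for tables and plots.

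The members and the gene lists were chosen with earlier results of these data known. Named genes were the 10 members, Esm1, signaling genes (Ifng, Ifngr1, Ifngr2, Jak1, Jak2, Irf1, Irf8, Irf9, Socs1, Nlrc5 and Ciita), all tested genes of the list of other GTPases, the genes with the lowest and highest log2 fold change of each other list, and the 5 genes most like the members, among those with a mean of at least 1 CPM and with a prior count of 2. Values that rule added but the text omits are those of cell type lists given by their sums, and some results are not reported here.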

Additional observations from a re-analysis of the deposited data

How the results depend on the processing

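Over WT 1, WT 2, KO 1 and KO 3, all 10 members stayed called under each other scaling, filter and test. Leaving out a library gave 7 to 10 called members. Over all 6 libraries the count was 0, and leaving out a library gave 0 to 10, with 10 reached only without KO 2. The 4 libraries gave 10. The number of genes called over the 4 libraries, 2244 lower and 464 higher, became 3160 and 2679 with DESeq2 and 3590 and 2622 with the edgeR exact test, while over all 6 it went from 0 to 425 lower and 757 higher with DESeq2, which gave no adjusted p for 2 members, and to 46 and 75 with the exact test. Scaling by total counts alone moved the median of all genes over the 4 libraries from -0.03 to -0.27 and that of the members from -4.02 to -4.25.

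The lists of other interferon-inducible GTPases, interferon-gamma signaling, other interferon-gamma targets, type I interferon response and GTPase partners went from 12, 10, 17, 23 and 4 lower genes over the 4 libraries to 0 each over all 6. The WT mean over the KO mean had a median of 2.58 over the members, and 16.2 without KO 2. Uncalled values changed sign for Ido1 without KO 1 (-0.58, range -0.58 to 2.10 over single libraries left out) and for Ifnar1 without WT 2 (0.02, range -0.29 to 0.02). In fits that leave 1 library in a group, that library is assumed to vary like the others. The cause of these changes was not tested.

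Whether replicate numbers pair the samples was not settled. Deviations from the group mean over all genes correlated at 0.549 for KO 1 with WT 1, 0.594 for KO 2 with WT 2 and -0.21 for KO 3 with WT 3. Pairs of unlike number ran from -0.642 (KO 2 with WT 1) to 0.541 (KO 3 with WT 1). Deviations cancel out within a group, so these correlations depend on each other and cannot decide the question. With the replicate block over all 6 libraries, 0 members were called (edgeR adjusted p from 0.0793 to 0.18, median log2 fold change -2.85), as were 0 of all 16166 genes. Before adjustment 3 members had a p under 0.05. The share of all genes at that p in this fit is not given, so no result about the members is read from that count.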
